A study of Mus musculus with 2 samples.

Results

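The troponin genes are the 8 mouse genes for the subunits of the troponin complex: Tnnt1, Tnnt2, Tnnt3, Tnni1, Tnni2, Tnni3, Tnnc1 and Tnnc2. They were chosen by name, and they make up 8 of the 21938 protein-coding gene identifiers of the GENCODE vM21 annotation on mouse build mm10. Accessible chromatin around them was read from DNase-seq of heart tissue of newborn mice (strain B6NCrl, postnatal day 0, no treatment given in the labels), an assay in which nuclei are digested with DNase I and the sites it cuts are sequenced. There was 1 group of 2 libraries, with separate biosample labels but the same donor label and no recorded sex, so a standard deviation (SD) describes how far these samples lie apart, and that distance may be technical. Per the labels a later series supersedes this one, and it was not analysed here. With 1 tissue, 1 age and 2 libraries no test between conditions could be made, and the members are described beside all protein-coding genes.

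Troponin sits on the thin filament of striated muscle and couples calcium to contraction. Troponin T anchors the complex to tropomyosin, troponin I holds back the interaction of actin and myosin, and troponin C binds calcium and releases that hold. Each subunit has isoforms with their own genes: Tnnt2 and Tnni3 are the cardiac forms of T and I, Tnnt1 and Tnni1 the slow skeletal forms, and Tnnt3 and Tnni2 the fast skeletal forms, while Tnnc1 encodes the troponin C shared by cardiac and slow muscle and Tnnc2 that of fast muscle. Tnni1 is also known as the troponin I of the fetal heart, which Tnni3 replaces around and after birth.

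All 5 cardiac and slow skeletal troponin genes had an accessible site at a start of transcription in both libraries, and all 3 fast skeletal genes had none in either library. The authors' lists give peaks, each 150 bp long with 1 signal value, and hotspots, broader stretches where cutting is raised. A promoter peak is a peak whose centre lies within 500 bp of any annotated transcription start site (TSS) of the gene. Tnnt2, Tnni3, Tnnc1, Tnnt1 and Tnni1 had one in both libraries, which is 5 of 8 members, beside 63.7% of all protein-coding genes. In either library alone the same 5 had one, beside 66.0% of all genes in replicate 1 and 65.2% in replicate 2. Tnnt3, Tnni2 and Tnnc2 had none in either library, beside 32.5% of all protein-coding genes. The lists held 164657 peaks in replicate 1 and 144708 in replicate 2 on chromosomes 1 to 19, X and Y, with median values of 36 and 35, and the sequencing depth of the libraries is unknown. Over the whole family the share is close to the background, and the members differed by isoform class: 3 of 3 cardiac or cardiac and slow genes, 2 of 2 slow genes and 0 of 3 fast genes. A hotspot within 500 bp of a TSS was listed in both libraries for the same 5 members, beside 64.5% of all protein-coding genes. In whole tissue, fewer cells of a type and less accessibility per cell cannot be told apart, so a listed or missing peak describes the tissue and not 1 cell type.

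The DNA at these sites is shown for the members that the split by isoform class turns on, so that the place of each peak can be read in the sequence. The first 4 are RefSeq promoters (250 bases before to 50 after the start of the gene) of Tnnt2, Tnni3, Tnnc1 and Tnni1, and the fifth is that of Tnnc2, a fast gene with no peak. The RefSeq table of build GRCm38.p6 held promoters of 6 of the 8 members and none of Tnni2 or Tnnt3. The primary sequence of that build is that of mm10. No sequence is given for Tnnt1. Capitals mark matches, on either strand, to the consensus letters described with the motifs, and each line runs from its upstream to its downstream base on the strand of the gene.
Tnnt2 promoter (chr1:135836084-135836383, plus strand): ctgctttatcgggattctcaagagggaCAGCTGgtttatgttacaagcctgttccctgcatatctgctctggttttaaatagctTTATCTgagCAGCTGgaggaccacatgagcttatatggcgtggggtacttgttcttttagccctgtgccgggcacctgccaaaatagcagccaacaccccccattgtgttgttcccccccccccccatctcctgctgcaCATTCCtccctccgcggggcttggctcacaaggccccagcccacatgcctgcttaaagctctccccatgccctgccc
Tnni3 promoter (chr7:4522479-4522778, minus strand): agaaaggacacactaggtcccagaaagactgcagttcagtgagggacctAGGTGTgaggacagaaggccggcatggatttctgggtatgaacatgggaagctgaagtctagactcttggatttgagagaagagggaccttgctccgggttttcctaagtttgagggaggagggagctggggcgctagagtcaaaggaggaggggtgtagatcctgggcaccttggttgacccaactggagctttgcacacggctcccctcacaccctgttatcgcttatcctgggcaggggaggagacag
Tnnc1 promoter (chr14:31208062-31208361, plus strand): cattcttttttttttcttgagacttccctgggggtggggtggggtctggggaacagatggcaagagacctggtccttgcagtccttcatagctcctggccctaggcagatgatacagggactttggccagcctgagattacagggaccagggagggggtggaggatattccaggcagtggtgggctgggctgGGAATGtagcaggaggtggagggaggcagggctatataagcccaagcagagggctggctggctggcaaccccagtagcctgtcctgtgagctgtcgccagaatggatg
Tnni1 promoter (chr1:135799171-135799470, plus strand): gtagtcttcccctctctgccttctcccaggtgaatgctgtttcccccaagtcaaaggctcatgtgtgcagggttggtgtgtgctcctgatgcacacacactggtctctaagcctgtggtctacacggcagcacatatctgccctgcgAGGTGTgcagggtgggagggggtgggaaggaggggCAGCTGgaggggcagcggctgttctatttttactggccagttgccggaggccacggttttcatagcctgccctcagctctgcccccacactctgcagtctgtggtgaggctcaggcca
Tnnc2 promoter (chr2:164779685-164779984, minus strand): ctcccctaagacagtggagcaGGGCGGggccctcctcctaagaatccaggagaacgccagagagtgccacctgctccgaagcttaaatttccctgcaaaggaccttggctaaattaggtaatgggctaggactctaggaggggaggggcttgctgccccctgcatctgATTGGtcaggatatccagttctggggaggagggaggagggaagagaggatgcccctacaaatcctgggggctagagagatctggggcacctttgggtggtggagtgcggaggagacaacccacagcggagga
Counted from the left end of each line, the Tnnt2 promoter peak covered bases 33 to 182 in replicate 1 and bases 1 to 122 in replicate 2. The Tnni3 peak covered bases 94 to 243 and 154 to 300, the Tnnc1 peak bases 135 to 284 in both libraries and the Tnni1 peak bases 146 to 295 in both. No peak of either library touched the Tnnc2 sequence.

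Tnnt2, the cardiac troponin T used as a blood marker of heart injury, lies at 1:135836354-135852260 on the plus strand (15907 bp, 15 transcripts, 10 TSSs). Its highest promoter peak had a value of 115 in replicate 1 and 102 in replicate 2 (mean 108.5 ± 9.19 SD, n = 2). Both values were high within their library: 98.8% of all peaks of replicate 1 and 97.4% of those of replicate 2 had a lower value. The peak lay in intergenic sequence, with its centre 163 bp upstream of the gene's 5′ end in replicate 1 and 223 bp upstream in replicate 2. It sat in a hotspot of 1008 bp in replicate 1 and 619 bp in replicate 2, both listed at the highest value of the hotspot scale, a −log10 q of 100. Replicate 1 alone listed further promoter peaks inside the gene, with values from 20 to 33.

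Tnni3, the cardiac troponin I, lies at 7:4518305-4524229 on the minus strand (5925 bp, 8 transcripts, each with its own TSS). Its highest promoter peak had a value of 114 in replicate 1 and 110 in replicate 2 (mean 112 ± 2.83 SD, n = 2), above 98.7% of all peaks in both libraries. The mean value of Tnni3 was above that of Tnnt2 by less than the spread of Tnnt2 between the libraries, and the ranges of the 2 cardiac genes overlapped. The peak was centred 83 bp (replicate 1) and 23 bp (replicate 2) upstream of transcript Tnni3-201, inside the annotated gene. The annotated 5′ end belongs to a longer transcript, Tnni3-207, which reaches into Dnaaf3, a gene for a dynein assembly factor that overlaps Tnni3. A second peak near that 5′ end, in an intron of Dnaaf3, had values of 59 and 60.

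Tnnc1, the calcium-binding troponin C of heart and slow muscle, lies at 14:31208312-31211729 on the plus strand (3418 bp, 3 transcripts, 3 TSSs). Its promoter peak had a value of 87 in replicate 1 and 69 in replicate 2 (mean 78 ± 12.7 SD, n = 2), at the same coordinates in both and centred 41 bp upstream of the gene. Replicate 2 was lower, and Tnnc1 had the lowest promoter value of the 5 members in both libraries. Its hotspot was also narrower, at 269 and 249 bp, and listed below the highest value, at a −log10 q of 5.30 and 4.24. Tnnc1 overlaps Nisch, and the promoter peak is in an intron of that gene by annotation.

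The Tnnc1 locus held higher peaks close to that promoter. A peak in the gene body, centred 999 bp downstream of the 5′ end in an intron, had values of 110 and 103, at the same coordinates in both libraries and in hotspots of 452 and 455 bp listed at the highest value. A peak centred at −1541 bp from the 5′ end had values of 107 and 98, but its centre was 30 bp from a TSS of another gene and in an exon of Nisch. The intronic peak lay outside the promoter window, so the promoter value of Tnnc1 understates the highest value at the gene.

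Tnnt1, the slow skeletal troponin T, lies at 7:4504570-4516382 on the minus strand (11813 bp, 13 transcripts, 12 TSSs). Its highest promoter value was 88 in replicate 1 and 96 in replicate 2 (mean 92 ± 5.66 SD, n = 2), but the 2 values came from different sites. The first site, upstream of the 5′ end, had a value of 88 in replicate 1 and 82 in replicate 2, centred 249 and 229 bp upstream of the gene. The second, centred 6271 and 6211 bp inside the gene near the start of a retained-intron transcript (Tnnt1-211), had values of 80 and 96. Both sites were listed in both libraries, which differed in which site was higher. Replicate 1 alone listed further promoter peaks inside the gene, with values from 24 to 52. Those of 52 and 41 were centred 63 and 13 bp from a TSS of a protein-coding transcript. Hotspots over the upstream site measured 1017 bp in replicate 1 and 362 bp in replicate 2, of which only the first was at the highest value.

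Tnni1, the slow skeletal and fetal cardiac troponin I, lies at 1:135779434-135810989 on the plus strand (31556 bp, 9 transcripts, 8 TSSs). Its highest promoter peak had a value of 89 in replicate 1 and 84 in replicate 2 (mean 86.5 ± 3.54 SD, n = 2), at the same coordinates in both. The peak was centred 11 bp upstream of the protein-coding transcript Tnni1-207 and 19957 bp inside the annotated gene, whose 5′ end is that of a processed transcript. At that annotated 5′ end only replicate 1 listed a peak, with a value of 44. An intronic peak downstream of it, 778 bp (replicate 1) and 818 bp (replicate 2) from the nearest TSS, was higher than the promoter peak in both libraries, with values of 111 and 98 in hotspots of 916 and 865 bp.

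The intronic sites of Tnni1 and Tnnc1 were, with the Tnnt2 and Tnni3 promoters, among the highest peaks at the troponin genes, and they are shown for that reason. Both were read from GRCm38.p6 and are given on the plus strand, which is the strand of both genes, at the coordinates of replicate 1.
Tnni1 intronic peak (chr1:135800536-135800685, plus strand): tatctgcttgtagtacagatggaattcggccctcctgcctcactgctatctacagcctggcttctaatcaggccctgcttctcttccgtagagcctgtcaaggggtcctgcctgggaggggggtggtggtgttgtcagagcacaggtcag
Tnnc1 gene-body peak (chr14:31209236-31209385, plus strand): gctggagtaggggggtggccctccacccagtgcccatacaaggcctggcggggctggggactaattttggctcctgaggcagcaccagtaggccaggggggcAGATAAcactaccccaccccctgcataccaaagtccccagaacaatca
The Tnnc1 peak holds 1 AGATAA, the core bound by GATA factors, and the Tnni1 peak holds none of the motifs searched.

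**Figure D1:**
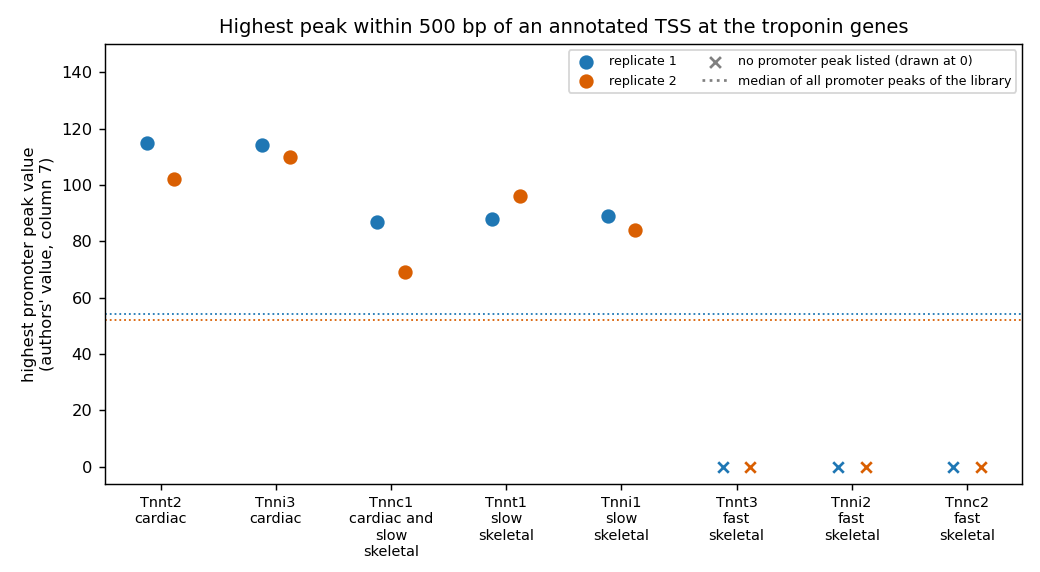
Highest value of a peak within 500 bp of an annotated TSS (vertical axis, the authors' peak value) for the 8 troponin genes, 1 point per library; crosses at 0 mark genes with no promoter peak and dotted lines mark the median of all promoter peaks of each library (54 and 52). All 10 points of the cardiac and slow genes lie above those lines, between 69 and 115, and the 3 fast genes have crosses in both libraries. The points are the highest value per gene, while the lines are medians over single peaks. Over the 13981 genes with a promoter peak in both libraries, the median highest value was 89 and 85. Only the points of Tnnt2, of Tnni3 and, in replicate 2, of Tnnt1 exceed that.

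In order of mean promoter value the 5 members ran Tnni3, Tnnt2, Tnnt1, Tnni1 and Tnnc1. The values of neighbours in that order overlapped, except between Tnnt2 (102 to 115) and Tnnt1 (88 to 96). Of the 5, only Tnni3 and Tnnt2 had a promoter value above 100 in both libraries. The median over the 5 members was 89 in replicate 1 and 96 in replicate 2, beside 89 and 85 over the 13981 protein-coding genes with a promoter peak in both libraries. The median of the members thus equalled that of all genes with a peak in replicate 1 and was above it in replicate 2. Both cardiac genes were above the median of all genes with a peak in both libraries. Of those 13981 genes, 86.4% in replicate 1 and 74.5% in replicate 2 had a lower highest promoter value than Tnnt2, and 85.1% and 85.9% had a lower one than Tnni3. For Tnnt1, Tnni1 and Tnnc1 this share ran from 31.1% to 65.4%.

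Tnnt3, the fast skeletal troponin T, lies at 7:142498836-142516009 on the plus strand (17174 bp, 27 transcripts, 10 TSSs). The peak nearest to one of its TSSs was 845 bp upstream in replicate 1, with a value of 45 in an intron of the overlapping gene Prr33. In replicate 2 the nearest peak was 8461 bp away, with a value of 46. Within the gene replicate 1 had 2 peaks, with values of 36 and 41, and replicate 2 had none.

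Tnni2, the fast skeletal troponin I, lies at 7:142441808-142444410 on the plus strand (2603 bp, 8 transcripts, 7 TSSs). It had no peak and no hotspot within the gene in either library. A peak centred 1057 bp upstream was however listed at the same coordinates in both libraries, with values of 70 and 77, in hotspots of 327 and 293 bp at the highest value. It is the only site within 2 kb of a fast member found in both libraries, and its sequence is shown because it lies just outside the promoter windows tried (500 and 1000 bp).
Tnni2 upstream peak (chr7:142440676-142440825, plus strand): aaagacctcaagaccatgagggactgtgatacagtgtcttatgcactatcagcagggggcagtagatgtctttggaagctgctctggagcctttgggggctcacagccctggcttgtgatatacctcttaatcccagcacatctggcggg
None of the motifs searched occurs in it.

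Tnnc2, the fast skeletal troponin C, lies at 2:164777161-164779967 on the minus strand (2807 bp, 2 transcripts, 2 TSSs) and overlaps Ube2c. Replicate 1 listed 1 weak peak in an intron, 670 bp from the nearest TSS, with a value of 25 that is above only 23.7% of the peaks of that library, in a hotspot of 57 bp. Replicate 2 listed none in the gene, and its nearest peak was 5864 bp away in an exon of Snx21.

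The 5′ ends of the troponin genes were poor in CpG, the dinucleotide that is dense at many broadly active promoters of mammals and sparse at many tissue-restricted ones. Within 500 bp of the 5′ end, the observed over expected CpG ratio ran from 0.081 (Tnnc1) to 0.375 (Tnni3), and all 8 members fell in the lowest 4 of 10 equal groups of protein-coding genes ordered by this ratio. The highest promoter peak of Tnni3 was centred 1618 and 1678 bp inside the gene, and that of Tnni1 19957 bp inside. That of Tnnt1 in replicate 2 was 6211 bp inside. The ratio does not describe those sites. Genes of those groups had a promoter peak, at any TSS, less often than all genes: 8.11% of the lowest, 18.0% of the second, 30.5% of the third and 46.2% of the fourth had one in both libraries. Tnnc1, in the lowest group, had a promoter peak in both libraries, and so did Tnnt2 and Tnnt1 in the second. At their 5′ ends the fast genes were no poorer in CpG than the others, with ratios of 0.083 (Tnnt3), 0.204 (Tnni2) and 0.212 (Tnnc2), beside 0.081 to 0.375 for the 5 members with a peak.

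Short consensus sequences of factors known in muscle and at promoters were searched on both strands in the highest promoter peak of each of the 5 members. For Tnnt1 that peak was the upstream site in replicate 1 and the site inside the gene in replicate 2, so its matches by library are those of different sites. AGATAA (the GATA core) was in the Tnnt2 peak of both libraries and in no other member's, beside 3.60% of all promoter peaks of replicate 1 and 3.53% of replicate 2. CATTCC (TEAD) was in the Tnnc1 peak of both libraries, beside 7.13% and 7.19%, and in the Tnnt1 peak of replicate 2. CAGCTG, an E-box form that reads the same on both strands, was in the Tnnt2 and Tnni1 peaks of both libraries and in the Tnnt1 peak of replicate 2, beside 10.6% in each. AGGTGT (T-box factors) was in the Tnni1 peak of both libraries, beside 4.66% and 4.88%.

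In the Tnnt2 line above, the AGATAA match (bases 85 to 90, written TTATCT on this strand) and the CAGCTG at bases 94 to 99 lie within the peaks of both libraries, 3 bases apart. The CATTCC at bases 224 to 229 lies outside both peaks. In the Tnni1 line, AGGTGT (bases 148 to 153) and CAGCTG (bases 183 to 188) lie within the peak, and the AGGTGT of Tnni3 (bases 50 to 55) lies outside it. The Tnnc2 promoter, without a peak, holds 1 GC box and 1 CCAAT box. The GC box, GGGCGG, was in no peak of the 5 members, beside 37.9% and 38.8% of all promoter peaks, and CCAAT in none, beside 20.0% and 20.4%. The MEF2 site, the CArG box, TNAAGTG (NKX2-5) and TGANTCA (AP-1) also had no match in these peaks, beside 1.44%, 0.692%, 4.52% and 3.64% of the promoter peaks of replicate 1. None of these strings contains another. Over the 32851 RefSeq promoters, AGATAA was found in 11.2%, CATTCC in 14.7%, CAGCTG in 16.3%, AGGTGT in 13.7%, GGGCGG in 35.7% and CCAAT in 37.4%. A match or its lack is a statement on these letters in these windows and on no factor.

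Inside the genes the libraries differed in their number of peaks, most of all at Tnnt2. The highest promoter peak of each of the 5 members was listed in both libraries. Replicate 1 alone also listed weaker promoter peaks at Tnnt2, Tnni3, Tnnt1 and Tnni1, with values from 19 to 52. Except at Tnni1 their centres lay in the gene body, so they are counted here as well. Peaks with their centre in the gene body numbered 32 in replicate 1 and 1 in replicate 2 at Tnnt2, 10 and 8 at Tnni1, 8 and 2 at Tnnt1, 6 and 2 at Tnni3, 2 and 0 at Tnnt3, 1 and 0 at Tnnc2, 1 and 1 at Tnnc1, and 0 and 0 at Tnni2. Replicate 1 had more gene-body peaks at 6 of 8 members, beside 32.6% of all protein-coding genes, and replicate 2 at 0 of 8, beside 18.8%. A peak in the gene in both libraries was found for the same 5 members that had a promoter peak, beside 66.2% of all genes. Per length, the median of the 8 members was 0.337 peaks per kb in replicate 1 and 0.116 in replicate 2, beside 0.0814 and 0.0707 over all protein-coding genes. Tnnt2 stood above the median of all genes in replicate 1 (2.01 peaks per kb) and below it in replicate 2 (0.0629).

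**Figure D2:**
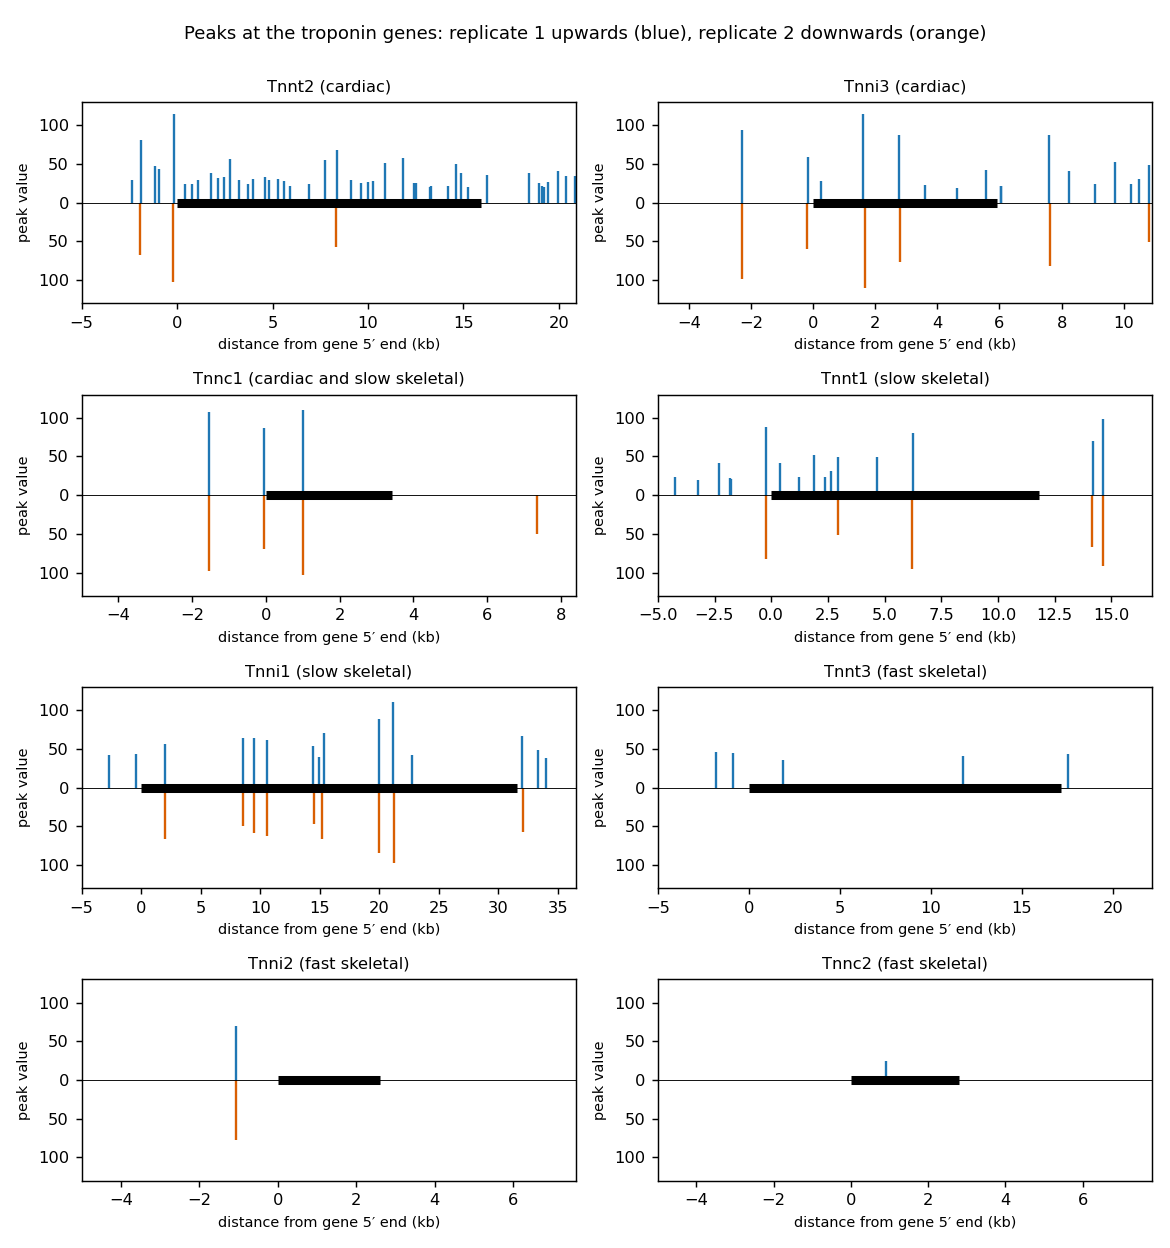
Peaks around each troponin gene from 5 kb upstream to 5 kb downstream, against distance from the gene's 5′ end in kb, with the gene as a black bar; the height of a line is the peak value, replicate 1 upwards and replicate 2 downwards. Tnnt2 carries 32 peaks in the gene in replicate 1 and 1 in replicate 2, the high peaks of Tnnc1 and Tnni1 are mirrored, and the fast genes carry at most 2.

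Hotspots gave the same picture in bases. They covered 60.9% of Tnnt2 in replicate 1 and 1.85% in replicate 2, 43.6% and 15.8% of Tnni3, and 26.5% and 5.38% of Tnnt1. At Tnnc1 (16.1% and 15.6%) and Tnni1 (9.42% and 7.46%) the libraries were close. Counting only hotspots at the highest value, the share of Tnnt2 was 32.9% and 1.14%, that of Tnni3 29.1% and 9.06%, and that of Tnnt1 24.5% and 3.69%. The share of Tnni1 was then 3.92% and 2.74%, and that of Tnnc1 was 13.2% and 13.3%. Of the fast genes, with all hotspots counted, Tnnt3 had 1.49% in replicate 1 and Tnnc2 had 2.03%, with 0 in replicate 2, and Tnni2 had 0 in both. The median over all protein-coding genes was 2.50% and 2.29%, so all 5 cardiac and slow members exceeded it in both libraries except Tnnt2 in replicate 2. Among the 17798 protein-coding genes of at least 5 kb, the excess of replicate 1 over replicate 2 ranked 2 for Tnnt2 (59.1 percentage points), 6 for Tnni3 (27.8 points) and 11 for Tnnt1 (21.1 points). Tnni1 ranked 1612 and Tnnt3 2211.

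**Figure D3:**
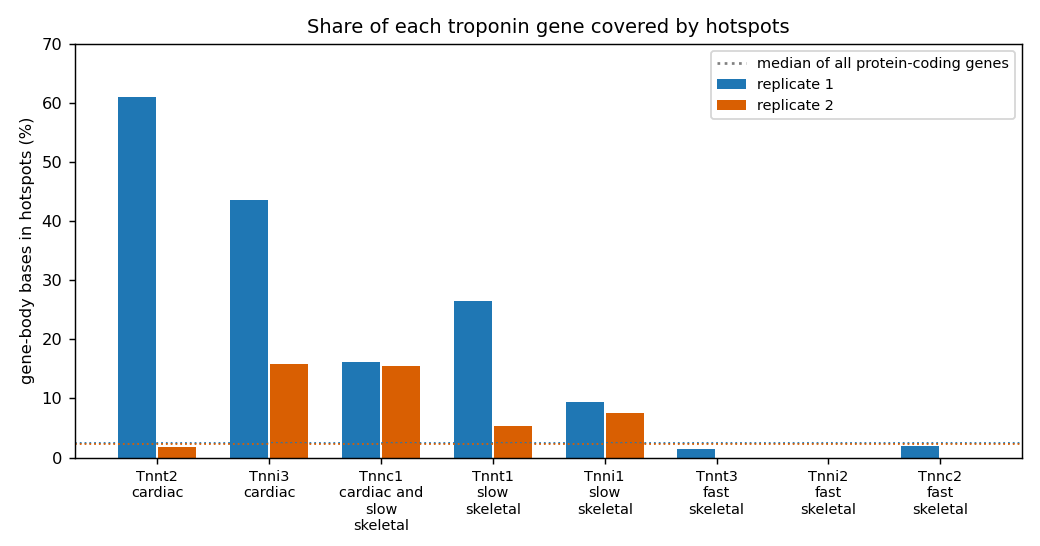
Share of the bases of each troponin gene covered by hotspots, in percent, with 1 bar per library; dotted lines mark the median over all protein-coding genes. The bars of replicate 1 exceed those of replicate 2 widely at Tnnt2 (60.9% and 1.85%), Tnni3 and Tnnt1, and are close at Tnnc1 and Tnni1.

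The peaks at Tnnt2 in replicate 1 formed a run, here a chain of peaks whose centres are at most 1000 bp apart. It held 38 peaks from 1:135833936 to 1:135852645 (18710 bp), from upstream of the gene to just past its end. The promoter peak, at 115, was the highest, and the median of the run was 30, with 25 of 38 values below the library median of 36. The peaks were spaced by a median of 440 bp (60 to 980 bp). In the gene, 16 of the 32 peaks (50%) had their centre in an exon of some transcript, beside 48.7% of the gene's bases. Replicate 2 listed 3 peaks in the same span, which were the promoter peak, a site 1963 bp upstream (67, beside 81 in replicate 1) and an exonic site 8337 bp into the gene (57, beside 68). Those 3 sites were also the 3 highest of the run in replicate 1. Of the 118671 runs of replicate 1, a lone peak also counting as a run, 2 held at least as many peaks, this one included. By peaks per kb Tnnt2 ranked 3 of 17798 genes of at least 5 kb.

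A second run of 27 peaks followed downstream of Tnnt2, from 1:135854716 to 1:135864145, with a median value of 31 and 5 peaks of replicate 2 in its span. The flanking genes stood outside both runs. Lad1, upstream of Tnnt2 and between it and Tnni1, had 0 peaks in replicate 1 and 1 in replicate 2, and Pkp1, downstream, had 2 and 3. Csrp1, beyond Tnni1, had 7 in each library, and Phlda3 had 2 and 7, and thus no excess in replicate 1 comparable to that of Tnnt2. A shorter run of 7 peaks covered the upstream part of Tnnt1 in replicate 1, where replicate 2 had 2. In replicate 2 a run of 7 peaks lay at Phlda3, where replicate 1 had 2. Runs of at least 7 peaks numbered 472 in replicate 1 and 468 in replicate 2. An excess of gene-body peaks at least as large as the 31 of Tnnt2 was found at 7 protein-coding genes in the direction of replicate 1 and at 0 in the direction of replicate 2. The origin of the runs was not tested.

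**Figure D4:**
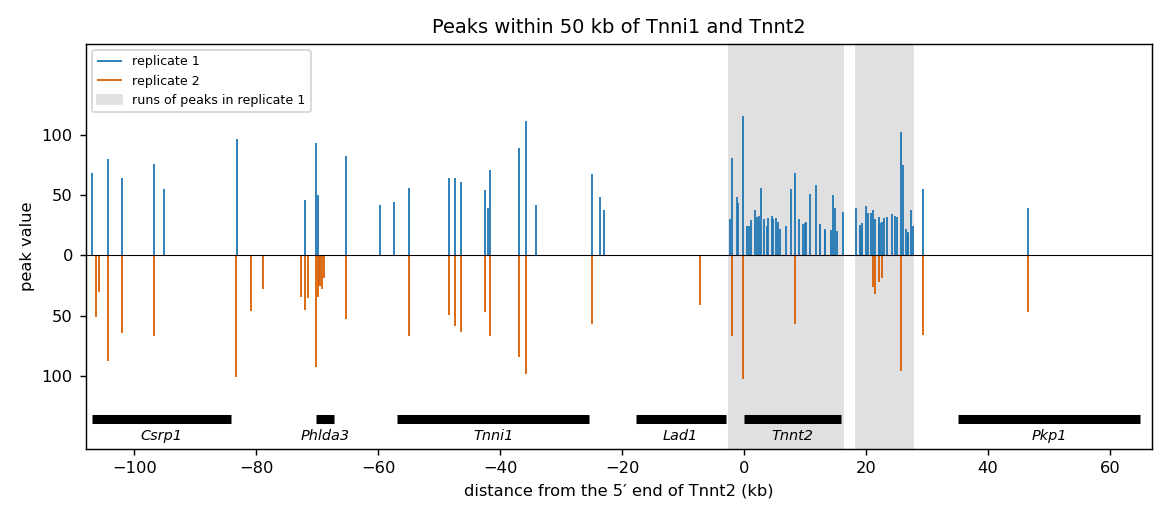
Peaks within 50 kb of Tnni1 and Tnnt2 against distance from the 5′ end of Tnnt2 in kb, with peak value as height, replicate 1 upwards and replicate 2 downwards; bars mark genes (those of Csrp1 and Pkp1 run past the window) and grey marks the 2 runs of replicate 1 (38 and 27 peaks). Outside the grey spans the 2 libraries list many of the same sites, and inside them replicate 2 lists 3 and 5 peaks.

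Distal peaks, those centred more than 1 kb from every annotated TSS, were counted in each gene and 50 kb to either side. In replicate 1 and replicate 2, Tnnt2 had 64 and 15, Tnni1 61 and 24, Tnnt3 22 and 15, Tnni2 18 and 15, Tnni3 10 and 4, Tnnt1 10 and 4, Tnnc1 9 and 10, and Tnnc2 3 and 3. The mean over the members was 24.6 in replicate 1 and 11.3 in replicate 2, beside 9.08 and 7.83 over all protein-coding genes. Tnni1 and Tnnt2 share the runs in their windows, and with peaks in the spans of the 2 runs left out Tnnt2 had 12 and 8 and Tnni1 had 19 and 18. The mean was then 12.9 and 9.63. In replicate 2, Tnni1 had more distal peaks than 96.5% of all protein-coding genes, and Tnnt2, Tnnt3 and Tnni2 had more than 87.2%, while Tnni3 and Tnnt1 had more than 29.2% and Tnnc2 more than 22.7%.

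The order of the classes by distal peaks differed from that at promoters in replicate 2, while in replicate 1 the fast genes were lowest, as at promoters. The fast genes, none of which had a promoter peak, had a mean of 14.3 in replicate 1 and 11.0 in replicate 2. That mean was carried by Tnnt3 and Tnni2, whose windows share sites, and Tnnc2 with 3 and 3 was below the mean of all genes. The cardiac and cardiac and slow genes had 27.7 and 9.67, and the slow genes 35.5 and 14.0. These classes are not separate, since Tnnt2 shares much of its window with Tnni1, and Tnni3 with Tnnt1. Many of the same peaks, those of the runs included, are counted in both class means. With peaks in the spans of the 2 runs left out, the means were 10.3 and 7.33 for the cardiac and cardiac and slow genes and 14.5 and 11.0 for the slow genes. Those spans also hold sites listed in both libraries. The cardiac and cardiac and slow genes thus stood above the fast genes in replicate 1 with the runs and below them without.

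**Figure D5:**
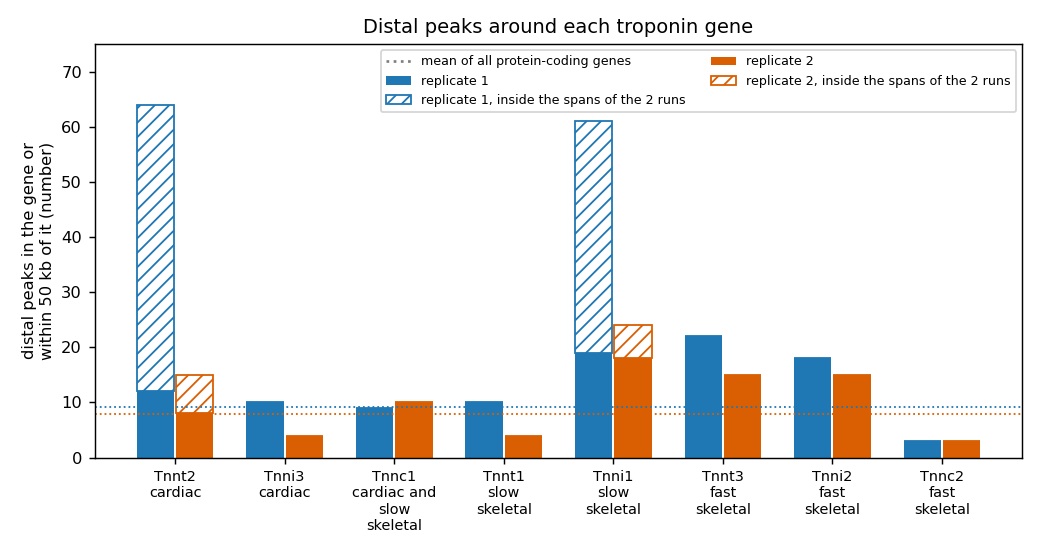
Number of peaks centred more than 1 kb from every TSS in each troponin gene or within 50 kb of it, 1 bar per library; the hatched part lies in the spans of the 2 runs at Tnnt2 and dotted lines mark the mean over all protein-coding genes (9.08 and 7.83). Without the hatched part Tnni1 has 19 and 18, and the fast genes Tnnt3 and Tnni2 stand above the dotted lines in both libraries.

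The troponin genes lie in pairs of a troponin I and a troponin T, so most members are not independent of a neighbour. Tnni1 and Tnnt2 are 25364 bp apart on chromosome 1, Tnnt1 and Tnni3 1922 bp apart on chromosome 7, and Tnni2 and Tnnt3 54425 bp apart on the same chromosome, while Tnnc1 and Tnnc2 stand alone. Within 50 kb of the Tnni1 and Tnnt2 pair there were 73 distal peaks in replicate 1 and 27 in replicate 2, and 23 of the 73 overlapped a peak of replicate 2. The Tnni2 and Tnnt3 pair had 29 and 21, with 18 of 29 overlapping, and the Tnnt1 and Tnni3 pair had 10 and 4, with 4 of 10 overlapping. Tnnc1 had 9 and 10, with 7 of 9 overlapping, and Tnnc2 had 3 and 3, with 2 of 3. Each peak counted once, the windows of the 8 members held 202 peaks in replicate 1 and 121 in replicate 2. Of these, 47.5% of the peaks of replicate 1 and 80.2% of those of replicate 2 overlapped a peak of the other library, beside 70.1% and 79.8% over the genome. With the 2 runs left out the share was 63.5% in replicate 1 and 78.8% in replicate 2.

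The highest distal peak found in both libraries had a mean value from 71 (Tnnc2) to 99 (Tnnt2) by gene, below the promoter peaks of Tnnt2 and Tnni3. Downstream of Tnnt2, an intergenic peak 25757 bp from its 5′ end had values of 102 and 96 at the same coordinates. It lies within the span of the second run, and its sequence is shown as the highest shared distal site of the family.
Tnnt2 downstream peak (chr1:135862036-135862185, plus strand): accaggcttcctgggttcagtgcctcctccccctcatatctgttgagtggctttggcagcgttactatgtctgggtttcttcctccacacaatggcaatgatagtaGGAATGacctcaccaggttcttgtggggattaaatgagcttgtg
It holds 1 match to CATTCC, written GGAATG on this strand. Upstream of Tnni1, an intergenic peak centred at −26303 bp from the annotated 5′ end had values of 96 and 101. Within Tnni1, 6 further distal sites were listed in both libraries, with values from 47 to 71.

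The windows of the fast pair held 18 distal sites found in both libraries: 5 upstream of Tnni2, 9 between the genes and 4 downstream of Tnnt3. The highest, intergenic and 17683 bp downstream of the 5′ end of Tnni2, had values of 95 and 82. In replicate 1 it was 1 of 6 peaks in a run of 2650 bp, of which 5 peaks of replicate 2 lay in the same span. Another, in an exon of Lsp1, had values of 77 and 69. With each site of replicate 2 counted once, Tnni2 had 14 shared distal sites within 50 kb and Tnnt3 had 13, of which 9 are the same sites, beside 15 for Tnnt2, 19 for Tnni1, 7 for Tnnc1, 4 for Tnni3, 4 for Tnnt1 and 2 for Tnnc2. The 4 sites of Tnni3 are also those of Tnnt1, and most sites of Tnnt2 are also counted for Tnni1. Near Tnnt1 and Tnni3 the highest shared distal peak, in an intron of Ppp1r12c, had values of 86 and 73, and near Tnnc1 the highest, in an intron of Nisch, had 85 and 78. A gene within 50 kb is a matter of distance, and no peak was assigned to a target.

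Other genes of the contractile apparatus, grouped by the muscle type they are known for, were read at their promoters by the same rule. Of 12 cardiac partners 11 had a promoter peak in both libraries (median of mean values 94.0), beside 63.7% of all protein-coding genes. The highest were Atp2a2, the calcium pump of the cardiac sarcoplasmic reticulum (110 and 107), and Actc1, cardiac alpha-actin (109 and 103). Of all partner and marker genes, Mylpf and Myl4 had the TSS of another protein-coding gene (Tbc1d10b and Cdc27) within 500 bp of one of theirs, so such a peak could belong to either gene. The exception was Myl7, the atrial myosin light chain, with no promoter peak in either library. Of 5 partners listed as slow skeletal or shared 4 had one (median 96.5), led by Myl6b (118 and 119), a myosin light chain, and Tpm3 (115 and 107), a tropomyosin. Mybpc1, the slow myosin-binding protein C, had none. All 4 shared thin-filament genes had one (median 77), led by the tropomyosins Tpm1 (106 and 113) and Tpm2 (77 and 80).

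Of 16 fast or other skeletal partners 8 had a promoter peak in both libraries, 7 in neither and 1, the light chain Myl1, only in replicate 1 (26). Over all protein-coding genes 63.7% had one in both libraries and 32.5% in neither. The 7 were the myosin heavy chains Myh1, Myh2, Myh3 and Myh4, the calcium pump Atp2a1, the calcium store protein Casq1 and the tropomodulin Tmod4. The median of the 8 was 36, and 2 stood far above it: Mylpf, the fast regulatory light chain (132 and 125), with a TSS of Tbc1d10b within 500 bp of its own, and Lmod3, a leiomodin (87 and 97).

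Marker genes of cell types were read by the same rule, beside 63.7% of all protein-coding genes with a promoter peak in both libraries and 32.5% in neither. All 5 cardiomyocyte markers (Myh6, Actc1, Nkx2-5, Ryr2 and Pln) had a promoter peak in both libraries, with values from 72 to 110. Of 12 markers of the skeletal muscle lineage 3 had one: Ckm (95 and 85), a creatine kinase also used by the heart, Myog (38 and 36) and Myh8 (34 and 28). Of the transcription factors of this lineage on the list, Myog thus had one, and Myod1, Myf5, Myf6 and Pax7 had none in either library. Of 4 smooth muscle markers 2, Acta2 and Myh11, had one in both libraries and 2, Tagln and Cnn1, only in replicate 1. Myh6, Actc1, Ryr2, Myh3 and Myh8 stand in 2 of these lists.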

How the data were processed

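DNase-seq of newborn mouse heart gave 2 libraries in 1 group, named replicates 1 and 2 by the labels. Per the deposited text files, peaks and hotspots were called for each replicate from its filtered alignments to mm10. For caller, version, filters and threshold the entry is "not given in the sources used here", and these set which weak sites are listed. The deposited peak lists give a signal value per 150 bp peak, a whole number with no stated scaling to depth. The deposited hotspot lists give a −log10 q-value from 1.30 to 6 and then exactly 100, and a score, a rounded form of it, that was not used here. Without read totals the depth is unknown, and precision rests on 2 libraries. The files held 164847 and 144867 peaks and 152666 and 132765 hotspots, of which those on chromosomes 1 to 19, X and Y were used.

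Genes and TSSs came from GENCODE vM21. Chromosome lengths of GRCm38.p6 were checked to hold all peaks before sequence was read from it. Peaks of both libraries were matched by an overlap of at least 1 bp. Percentiles are shares of genes, or of peaks of the same library, with a lower value. Windows, counts and motif searches were computed with Python 3.11.15, pandas 2.3.3, numpy 2.4.6 and pysam 0.24.0 and tested on simulated data. No statistical test was run, since the design has 1 group. The members and the gene lists were chosen with earlier results of these data known.

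All 8 members are named, with genes that overlap them or flank the runs, the partner genes without a promoter peak, and the 2 of each partner class with the highest mean value. Other genes are named only as the place of a peak, and the marker genes and Myl1 beside a count. Other TSS windows, TSS sets, peak and hotspot filters, distal limits and single libraries were tried as alternatives. The sequence of 1 peak, with its motif match, is not reported here.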

Additional observations from a re-analysis of the deposited data

How the results depend on the processing

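No paired analysis was possible because the series has 1 group. The values here have no sign that could reverse. Members whose promoter had a peak in both libraries numbered 5 under each alternative except at gene 5′ ends only, where they numbered 4, without Tnni1. The 5 members with a promoter hotspot became 4 with hotspots at the highest value, without Tnnc1, and 2 (Tnnt2 and Tnnc1) where the hotspot had to cover the gene's 5′ end. The median promoter value of the members (92.5, mean of both libraries) was 106.5 with a TSS window of 1000 bp, 81.5 at gene 5′ ends only and 86.5 with protein-coding transcripts only, and 89 to 96 with 1 library. The mean number of distal peaks (17.94) was 10.81 within 25 kb, 27.75 within 100 kb and 11.5 with peaks over 2500 bp from a TSS. It was 11.25 with the 2 runs at Tnnt2 left out, an alternative added after seeing the data. It was 11.25 from replicate 2 alone and 24.62 from replicate 1 alone. The run of 38 peaks at Tnnt2 held 7 with centres at most 500 bp apart and 38 at 2000 bp, both also added later. With 1 library, the median of gene-body peaks per kb ran from 0.1161 to 0.3366 and that of the hotspot share from 3.616% to 12.77%. With hotspots at the highest value that median (8.192%) was 5.257%, and the share of Tnni1 (8.437%) was 3.331%. The SD between 2 libraries is wide at Tnnt2, so no tally of shifts within 1 SD is given for single members. Against the median of all genes, Tnnt2 was above in replicate 1 and below in replicate 2 for gene-body peaks and for hotspots. The depth of the libraries is unknown, so a site missing from a list is not shown to be closed.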
